A study of Mus musculus with 12 samples.

Results

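The genes described here are the perilipins and their partners on the lipid droplet, the organelle in which fat cells store triglyceride. The set holds 10 genes chosen by name: Plin1, Plin2, Plin3, Plin4 and Plin5, the CIDE genes Cidea and Cidec, the droplet formation genes Bscl2 and Fitm2, and Hilpda. All 10 were found among the 28948 genes of the deposited matrix, and 9 of the 10 were expressed highly enough to enter the test of 11245 genes. Plin5 did not pass the filter of at least 1 RPKM in at least 3 libraries. RPKM is a read count divided by exon length and by library size.

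RNA was sequenced from 3T3-L1 cells, a fibroblast-like mouse line (strain label Swiss mouse) that was differentiated into adipocytes in all 12 libraries. The groups of 3 libraries were Foxp1 overexpression from a construct labelled constituent overexpression of FOXP1, its empty vector control, Foxp1 knockdown with a Foxp1 shRNA, and its scrambled shRNA control. All cells were differentiated with troglitazone (10 µM), insulin (5 µg/ml), isobutyl methylxanthine (0.5 mM) and dexamethasone (1 µM), had insulin alone from day 4, and growth medium from day 6. Troglitazone activates PPARγ, a nuclear receptor that drives several droplet genes, and all 4 groups had it. The harvest day, the number of hairpins or clones, and whether replicates were separate cultures are not given in the sources used here, so p-values measure only the spread between these libraries.

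A lipid droplet is a core of triglyceride and sterol ester under a single phospholipid layer that carries proteins. Perilipins coat this surface and govern how lipases reach the core: PLIN1 is the main coat of fat cell droplets, PLIN2 coats droplets in most cell types, PLIN3 and PLIN4 move between cytosol and new droplets, and PLIN5 is typical of heart, muscle and other oxidative tissues. CIDEC, also called FSP27, and CIDEA sit where droplets touch and move lipid from the smaller into the larger one; CIDEA is best known from brown fat. BSCL2 (seipin) and FITM2 act in the endoplasmic reticulum where droplets form, and HILPDA inhibits the lipase ATGL and is induced by low oxygen.

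The promoter windows of 5 of these genes are shown because their RNA levels carry the contrasts described here: Cidec, Plin1 and Plin2 were lower with overexpression and higher with knockdown, and Plin4 and Hilpda passed the test in neither. Each window runs from 250 bases before to 50 bases after a transcript start and was taken from RefSeq on build GRCm38.p6. All 5 read 5′ to 3′ along the gene, in lower case, with capitals marking matches on either strand to the forkhead core TAAACA, the nuclear receptor hexamer AGGTCA, the E-box CACGTG or the hypoxia response core ACGTG. The windows are Cidec at chr6:113435711-113436010 on the minus strand, Plin1 at chr7:79732727-79733026 on the minus strand, Plin2 at chr4:86670010-86670309 on the minus strand, Plin4 at chr17:56109733-56110032 on the minus strand, and Hilpda at chr6:29272376-29272675 on the plus strand.
Cidec: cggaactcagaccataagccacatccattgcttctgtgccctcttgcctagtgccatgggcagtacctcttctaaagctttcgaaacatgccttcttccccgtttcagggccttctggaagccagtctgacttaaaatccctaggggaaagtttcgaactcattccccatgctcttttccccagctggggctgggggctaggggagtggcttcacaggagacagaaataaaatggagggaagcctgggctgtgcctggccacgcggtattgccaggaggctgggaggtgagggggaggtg
Plin1: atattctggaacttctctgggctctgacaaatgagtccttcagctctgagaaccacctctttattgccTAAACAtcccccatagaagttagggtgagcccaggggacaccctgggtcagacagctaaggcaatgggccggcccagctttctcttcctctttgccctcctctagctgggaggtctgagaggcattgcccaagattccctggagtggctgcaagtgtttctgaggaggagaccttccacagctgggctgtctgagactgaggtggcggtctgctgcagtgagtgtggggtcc
Plin2: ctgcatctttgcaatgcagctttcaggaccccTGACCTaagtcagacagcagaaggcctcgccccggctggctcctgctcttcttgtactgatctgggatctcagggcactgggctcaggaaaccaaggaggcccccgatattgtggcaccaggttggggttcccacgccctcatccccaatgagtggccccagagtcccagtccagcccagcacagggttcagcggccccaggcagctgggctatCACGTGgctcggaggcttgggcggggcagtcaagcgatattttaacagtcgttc
Plin4: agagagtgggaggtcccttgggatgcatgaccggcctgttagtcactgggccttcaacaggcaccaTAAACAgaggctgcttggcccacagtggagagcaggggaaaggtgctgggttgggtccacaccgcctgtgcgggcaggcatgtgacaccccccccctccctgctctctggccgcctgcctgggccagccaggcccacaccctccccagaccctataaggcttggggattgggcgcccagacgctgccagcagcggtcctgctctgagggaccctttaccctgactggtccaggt
Hilpda: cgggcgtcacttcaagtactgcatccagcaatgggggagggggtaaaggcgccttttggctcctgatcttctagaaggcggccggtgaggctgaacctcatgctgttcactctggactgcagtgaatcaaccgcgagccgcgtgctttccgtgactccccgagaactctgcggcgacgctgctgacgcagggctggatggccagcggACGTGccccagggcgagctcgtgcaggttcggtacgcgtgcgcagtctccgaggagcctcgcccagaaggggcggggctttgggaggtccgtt

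The forkhead core TAAACA, which Foxp proteins can bind, occurred once in the Plin1 window, starting at position -182 from the transcript start, and once in the Plin4 window, at position -184. Of all 32851 promoter windows of the same length, 13.4% held this core on either strand. The Plin2 window held the hexamer AGGTCA at position -218, read on the opposite strand, and the E-box CACGTG at position -4, which contains ACGTG on both strands. The Hilpda window held ACGTG at position -43. AGGTCA occurred in 16.3% of all windows, CACGTG in 7.15% and ACGTG in 19.6%. The Cidec window held none of these letters.

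RefSeq windows were used for 9 of the 10 genes, all but Cidea, 14 in all. Some genes have several: the other Hilpda window, at chr6:29272238-29272537 around the annotated gene start, and the other Cidec window, at chr6:113434715-113435014, held none of the 4 marked motifs. Over the 14 windows, AGGTCA occurred in 4, TAAACA in 2, ACGTG in 2 and CACGTG in 1. The longer forkhead match GTAAACA, held by 3.65% of all windows, was in 0 of the 14. The same was true of the direct repeat AGGTCANAGGTCA (0.0396% of all windows), the C/EBP palindrome TTGCGCAA (0.183%) and the TATA letters TATAAA (13.6%). CCAAT occurred in 5 of the 14, against 37.4% of all windows. These matches describe the letters only and say nothing about occupancy by a factor.

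Between 35252019 and 38450002 reads were assigned to genes per library, as recovered from the RPKM and the exon lengths. Replicates of a group correlated at r = 0.9972 or more on log2(RPKM + 1) across genes, which are not independent replicates. Foxp1 overexpression replicate 3 stood apart: set against replicates 1 and 2, squared differences per gene averaged 30.3 and 31.7 times those of read sampling, while other pairs gave 2.73 to 9.89. Its mitochondrial share of reads was 13.1%, against 9.99% and 9.65% in its sister libraries. The log2 changes of the tested droplet genes with overexpression are therefore also given without it. Shares, sums and related lists with overexpression include it.

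Foxp1 itself had 5.78, 7.16 and 6.75 RPKM with overexpression, against 1.83, 1.76 and 1.82 RPKM with the empty vector. Knockdown libraries had 1.11, 1.14 and 1.08 RPKM, against 2.24, 2.20 and 2.11 RPKM with the scrambled hairpin. Overexpression thus gave 3.64 times the control level (adjusted p = 1.19e-09) and knockdown 0.508 times (adjusted p = 7.40e-06), in the labelled directions. Summed RPKM of the 10 fat cell markers was 3086 to 3350 with overexpression, against 7380 to 7469 with the empty vector, and 5951 to 6286 with knockdown, against 4652 to 4926 with the scrambled hairpin. All 4 groups therefore carried abundant fat cell RNA, with Lep alone of the 10 under 1 RPKM in every library. Of the macrophage markers, 5 of 6 were under 1 RPKM in every library, as were all 5 endothelial, all 3 skeletal muscle and all 4 liver markers examined.

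Of the 9 tested droplet genes, 7 changed with overexpression and 7 with knockdown, and for 6 of them the directions were opposite. Cidea and Plin3 were higher with overexpression and lower with knockdown, while Cidec, Plin1, Plin2 and Fitm2 were lower with overexpression and higher with knockdown. Bscl2 was lower in both, and neither Plin4 nor Hilpda passed the test in either. The test was limma on log2(RPKM + 1) over all 11245 genes in 1 model of the 4 groups, and a call needed a Benjamini-Hochberg adjusted p below 0.05. RNA came from whole cultures, so fewer cells that express a gene and less RNA per cell cannot be told apart.

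These counts stand on a broad background. With overexpression, 2 droplet genes rose and 5 fell, while 31.0% of all tested genes rose and 20.3% fell, 51.4% in all. With knockdown, 4 rose and 3 fell, while 18.7% of all genes rose and 31.0% fell, 49.7% in all. Calls in both comparisons with opposite directions were made for 6 of 9 droplet genes and 18.1% of all tested genes; calls in the same direction were made for 1 of 9 and 10.5%. The median size of the log2 change, regardless of sign, was 0.37 for the droplet genes and 0.15 for all genes with overexpression, and 0.44 and 0.15 with knockdown. The median signed change was -0.14 for the droplet genes and 0.04 for all genes with overexpression, and 0.05 and -0.04 with knockdown. These comparisons were not matched for RNA level, and log2(RPKM + 1) understates the change of low genes. The droplet genes were also chosen with earlier results of these data known.

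The split of all genes depended on scaling. On a TPM scale, 2731 of 13676 genes rose and 2872 fell with overexpression, beside 3490 and 2285 of 11245 as deposited. The filter was applied again to the TPM values, so the gene set differed as well as the scale. With median-ratio scaling, 2783 rose and 2791 fell with knockdown, beside 2100 and 3487 as deposited. Under each of the 3 scalings tried, the droplet genes gave 2 rises and 5 falls with overexpression and 4 rises and 3 falls with knockdown.

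**Figure D1:**
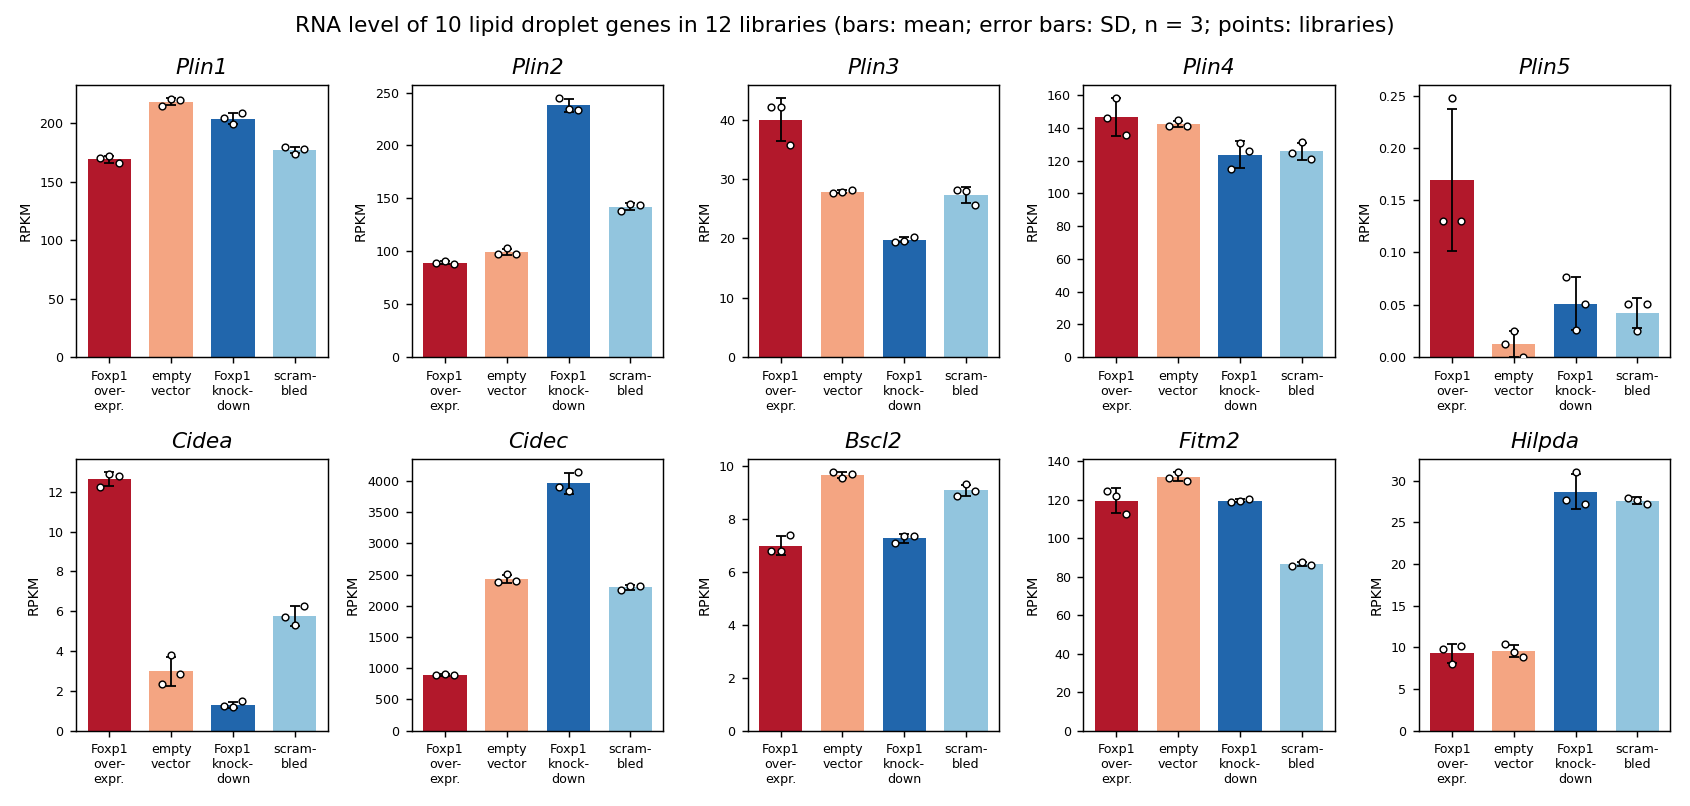
RNA level in RPKM (vertical axes, each starting at 0) of the 10 droplet genes in the 4 groups; bars are means of 3 libraries, error bars are SD and points are single libraries. Cidec fell to 893 RPKM with overexpression, against 2429.7 with the empty vector, and Cidea averaged 12.7 RPKM with overexpression and 2.99 RPKM with the empty vector. Plin5 stayed under 0.25 RPKM.

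Cidec, which lets droplets fuse into the large droplet of white fat cells, was the most abundant gene of the set in every group. It had 885, 907 and 886 RPKM with overexpression, against 2386, 2506 and 2397 RPKM with the empty vector. Knockdown libraries had 3904, 3830.1 and 4148 RPKM, against 2246, 2325 and 2312 RPKM with the scrambled hairpin. The groups did not overlap in either comparison, and every knockdown library lay above every library of the other 3 groups. Overexpression gave 0.368 times the level of the empty vector, a log2 change of -1.44 (SE 0.0454, adjusted p = 1.36e-10). Knockdown gave 1.73 times the scrambled level, a log2 change of 0.79 (adjusted p = 1.42e-07). Ordered by mean level among the 28948 listed genes, Cidec stood 26th with overexpression and 10th with the empty vector, and 5th with knockdown and 11th with the scrambled hairpin. Among the tested genes its fall with overexpression was the 56th largest and its rise with knockdown the 71st largest.

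Cidea, the CIDE protein of brown fat, moved the other way from a far lower level. It had 12.3, 12.9 and 12.8 RPKM with overexpression, against 2.34, 3.78 and 2.85 RPKM with the empty vector. It had 1.22, 1.21 and 1.48 RPKM with knockdown, against 5.73, 5.30 and 6.27 RPKM with the scrambled hairpin. The knockdown values rest on only 51, 51 and 62 reads, and those of the empty vector on 99, 162 and 112 reads. The overexpression libraries were the highest of all 12 and the knockdown libraries the lowest, without overlap. Overexpression gave 4.23 times the control level, a log2 change of 1.79 (SE 0.104, adjusted p = 2.47e-08), the 25th largest rise of the 11245 genes. Knockdown gave 0.226 times the control level, a log2 change of -1.56 (adjusted p = 4.35e-07), the 3rd largest fall.

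The 2 CIDE genes thus shifted against each other in both comparisons. The overexpression response minus the knockdown response was 3.35 for Cidea (SE 0.147, adjusted p = 3.02e-09) and -2.23 for Cidec (SE 0.0642, adjusted p = 1.19e-10). Per kilobase, Cidea made up 1.40% ± 0.0306 of the summed RPKM of both genes with overexpression and 0.122% ± 0.0265 with the empty vector (SD, n = 3 each). It made up 0.0328% ± 0.00244 with knockdown and 0.251% ± 0.0218 with the scrambled hairpin. The groups did not overlap, but 3 libraries against 3 cannot give an exact permutation p below 0.1, which is the two-sided p here. The sum of both genes followed Cidec, at 906 ± 12.8 RPKM with overexpression and 2433 ± 66.8 RPKM with the empty vector, and at 3962 ± 167 RPKM with knockdown and 2300.2 ± 42.3 RPKM with the scrambled hairpin.

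Cidea lies at chr18:67343604-67367785 on the plus strand of GRCm38 and shares 500 bases with B430212C06Rik, a transcript on the opposite strand that reached at most 0.84 RPKM. Cidec lies at chr6:113424634-113435760 on the minus strand with no overlapping gene. The strand setting of the authors' counting is not given in the sources used here, so reads from such opposite-strand pairs cannot be told apart.

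**Figure D2:**
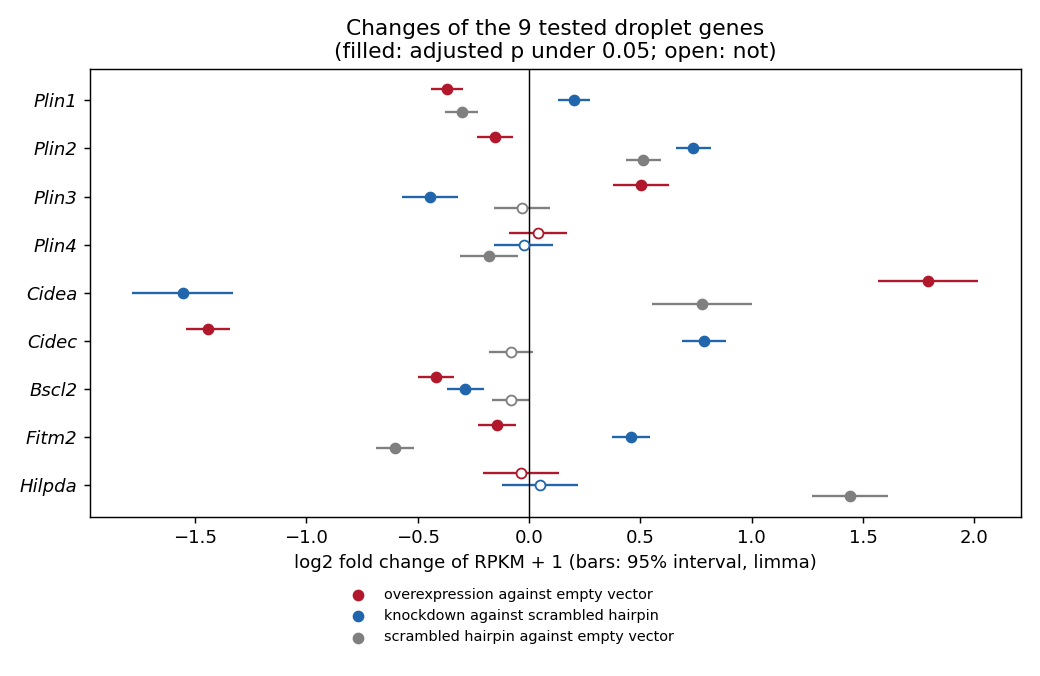
Log2 fold change of RPKM + 1 (horizontal axis) of the 9 tested droplet genes with 95% intervals from limma, for overexpression (red, over empty vector), knockdown (blue, over scrambled hairpin) and the controls (grey, scrambled hairpin over empty vector); filled points passed the test. Cidea and Cidec lie farthest from 0 in opposite directions, and the Hilpda change of 1.44 belongs to the comparison of the controls.

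Plin1, the main droplet coat of fat cells and a platform that holds the lipase activator ABHD5 until hormones release it, was moderately lower with overexpression. It had 170.0, 172 and 166 RPKM with overexpression, against 215, 221 and 219.6 RPKM with the empty vector. It had 204, 199 and 209 RPKM with knockdown, against 179, 174 and 178 RPKM with the scrambled hairpin. Neither comparison overlapped, although the knockdown level stayed below that of the empty vector. The log2 change was -0.37 with overexpression (SE 0.0338, adjusted p = 1.75e-06; 0.774 times) and 0.20 with knockdown (adjusted p = 0.000388; 1.15 times).

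Plin2, the coat of droplets in most cells, was slightly lower with overexpression and higher with knockdown. It had 89.2, 90.9 and 87.7 RPKM with overexpression, against 97.5, 102.7 and 97.6 RPKM with the empty vector. It had 245, 235 and 234 RPKM with knockdown, against 138, 144 and 144 RPKM with the scrambled hairpin. The 2 pairs of groups did not overlap. The log2 change was -0.15 with overexpression (SE 0.0367, adjusted p = 0.00442; 0.899 times) and 0.74 with knockdown (adjusted p = 5.39e-08; 1.67 times). The rise with knockdown was the 87th largest of all tested genes.

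Plin3, a perilipin that waits in the cytosol and coats new droplets, was higher with overexpression and lower with knockdown. It had 42.1, 42.1 and 35.8 RPKM with overexpression, against 27.7, 27.7 and 28.1 RPKM with the empty vector. It had 19.4, 19.6 and 20.3 RPKM with knockdown, against 28.1, 28.0 and 25.7 RPKM with the scrambled hairpin. No libraries overlapped in either comparison, and the low overexpression value belonged to replicate 3, the library that stood apart. The log2 change was 0.50 with overexpression (SE 0.0578, adjusted p = 1.35e-05; 1.44 times) and -0.44 with knockdown (adjusted p = 6.06e-05; 0.725 times).

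Plin4, a perilipin that coats the first small droplets in fat cells, gave no call in either comparison. It had 146, 158 and 136 RPKM with overexpression, against 141, 145 and 141 RPKM with the empty vector. It had 115, 131 and 126 RPKM with knockdown, against 125, 132 and 121 RPKM with the scrambled hairpin. Both pairs of groups overlapped. The 95% interval of the log2 change ran from -0.09 to 0.17 with overexpression (adjusted p = 0.603) and from -0.16 to 0.11 with knockdown (adjusted p = 0.756).

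Plin5 was close to the limit of detection. It had 0.130, 0.248 and 0.130 RPKM with overexpression, against 0.0126, 0.0249 and 0 RPKM with the empty vector. It had 0.0767, 0.0254 and 0.0510 RPKM with knockdown, against 0.0502, 0.0251 and 0.0506 RPKM with the scrambled hairpin. Summed over 3 libraries this was 39 reads with overexpression (95% Poisson interval 27.7 to 53.3) and 3 reads with the empty vector (0.619 to 8.77), 13.1 times as many per library size with a counting interval of 4.18 to 66.5. Knockdown had 12 reads and the scrambled hairpin 10, a ratio of 1.21 with an interval of 0.481 to 3.14. These intervals cover counting error only. Without the filter on low values Plin5 had an adjusted p of 0.00176 with overexpression and 0.951 with knockdown.

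Plin5 is the direct neighbour of Plin4 on chromosome 17. Plin4 lies at chr17:56100591-56109803 and Plin5 at chr17:56111601-56117596, both on the minus strand with 1797 bases between them, and Plin3 lies on the same chromosome at chr17:56277476-56292873. Plin4 had 114.88 RPKM or more in every library, while Plin5 stayed under 0.25 RPKM. Plin1 lies at chr7:79720218-79732903 and Plin2 at chr4:86648386-86670060, both on the minus strand and free of overlapping genes.

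**Figure D3:**
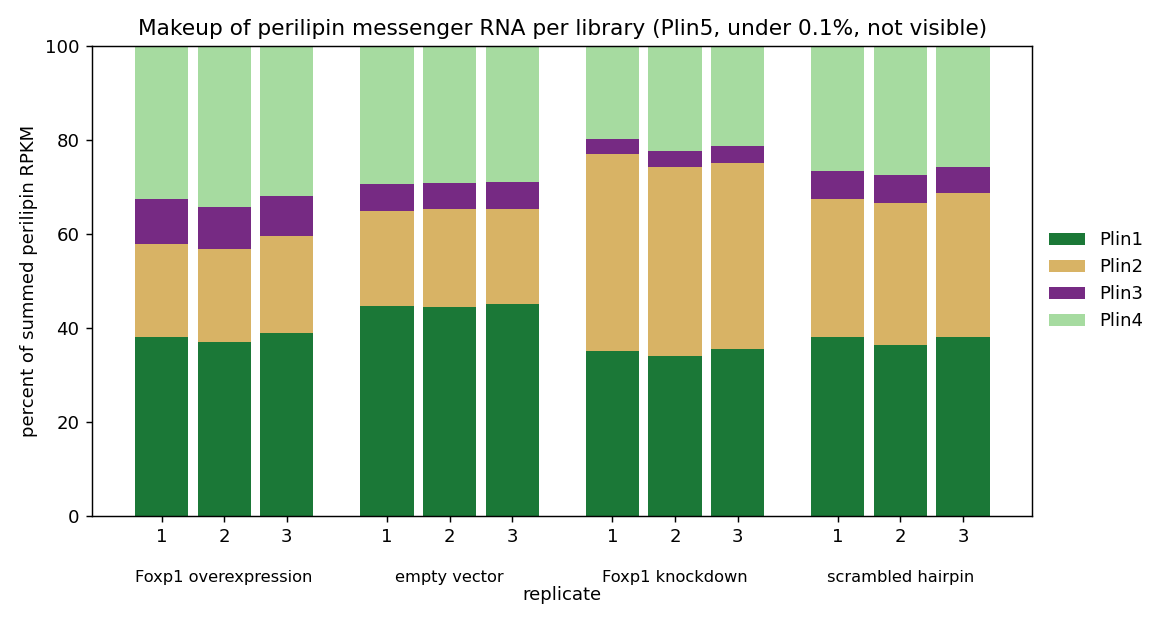
Share of each perilipin in the summed RPKM of Plin1 to Plin5 (vertical axis, percent) in each of the 12 libraries, grouped by condition along the horizontal axis. Plin2 made up 40.6% with knockdown against 30.1% with the scrambled hairpin, and Plin3 made up 8.97% with overexpression against 5.70% with the empty vector.

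The sums and most shares of perilipin RNA per kilobase did not overlap between the compared groups. With 3 libraries against 3, an exact permutation p cannot fall below 0.1. The 5 perilipins summed to 445 ± 19.4 RPKM with overexpression and 488 ± 7.51 RPKM with the empty vector, and to 585 ± 2.86 RPKM with knockdown and 472 ± 4.96 RPKM with the scrambled hairpin. Plin1 made up 38.0% ± 0.950 with overexpression and 44.8% ± 0.326 with the empty vector, and 34.8% ± 0.728 with knockdown and 37.5% ± 0.954 with the scrambled hairpin. Plin2 took 40.6% ± 1.204 with knockdown and 30.1% ± 0.670 with the scrambled hairpin, and was the leading perilipin per kilobase with knockdown, while its share was 20.1% ± 0.524 with overexpression and 20.3% ± 0.325 with the empty vector.

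Counted as reads and not per kilobase, Plin1 was ahead of Plin2 with knockdown, at 36.8% against 32.5%. The Plin1 share of reads then overlapped between knockdown and scrambled hairpin (36.8% and 38.3%, exact permutation p = 0.3). Plin3 made up 8.97% ± 0.505 with overexpression and 5.70% ± 0.101 with the empty vector, and 3.37% ± 0.0585 with knockdown and 5.77% ± 0.263 with the scrambled hairpin. Plin4 made up 32.9% ± 1.15 with overexpression and 29.2% ± 0.169 with the empty vector, and 21.1% ± 1.36 with knockdown and 26.6% ± 0.848 with the scrambled hairpin. The share of Plin4 thus differed in both comparisons without overlap, although its own level did not pass the test. A share also moves when the other perilipins in the sum change, so it does not measure the Plin4 level. Plin2 per Plin1 was 0.528 with overexpression and 0.454 with the empty vector, and 1.17 with knockdown and 0.803 with the scrambled hairpin. Cidec per Plin1 was 5.28 with overexpression and 11.1 with the empty vector, and 19.4 with knockdown and 12.96 with the scrambled hairpin. The two-sided exact permutation p was 0.1, the smallest possible, for each of these shares per kilobase, sums and ratios except the Plin2 share with overexpression, which overlapped (p = 0.4). Adjusted over the 30 tests of this family, these values were 0.111 and 0.429.

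Bscl2, which encodes seipin, a ring-shaped protein that holds new droplets to the endoplasmic reticulum, was the only gene of the set that was lower under both treatments. It had 6.77, 6.80 and 7.39 RPKM with overexpression, against 9.77, 9.52 and 9.68 RPKM with the empty vector. It had 7.08, 7.35 and 7.34 RPKM with knockdown, against 8.87, 9.30 and 9.04 RPKM with the scrambled hairpin. Neither comparison overlapped. The log2 change was -0.42 with overexpression (SE 0.0379, adjusted p = 1.61e-06; 0.723 times) and -0.29 with knockdown (adjusted p = 6.76e-05; 0.800 times). Bscl2 lies at chr19:8837467-8848683 on the plus strand and overlaps Gng3, on the opposite strand, over 1728 bases; Gng3 reached at most 0.642 RPKM. It also overlaps AC129217.1, on the same strand, over 3671 bases, and that gene reached at most 0.0445 RPKM.

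Fitm2, which helps triglyceride leave the endoplasmic reticulum into droplets, was slightly lower with overexpression and clearly higher with knockdown. It had 125, 122 and 112 RPKM with overexpression, against 132, 135 and 129.8 RPKM with the empty vector. It had 119, 119 and 120.2 RPKM with knockdown, against 85.9, 87.8 and 86.4 RPKM with the scrambled hairpin. Neither pair overlapped, but the lowest empty vector library was close to the highest overexpression library. The knockdown mean of 119.5 RPKM was near the overexpression mean of 119.6 RPKM and below the 132.0 RPKM of the empty vector. The opposite directions thus rest on controls that differed, with 86.7 RPKM for the scrambled hairpin. The log2 change was -0.14 with overexpression (SE 0.0395, adjusted p = 0.00971; 0.906 times) and 0.46 with knockdown (adjusted p = 3.00e-06; 1.38 times). With only the 6 overexpression and empty vector libraries in the model, the first of these had an adjusted p of 0.0504. Fitm2 lies at chr2:163466379-163472629 on the minus strand and overlaps the antisense transcript 2310001K24Rik over 673 bases, which reached at most 4.60 RPKM.

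Hilpda, an inhibitor of the triglyceride lipase ATGL, gave no call in either comparison. It had 9.83, 8.02 and 10.1 RPKM with overexpression, against 10.3, 9.43 and 8.90 RPKM with the empty vector. It had 27.7, 31.1 and 27.2 RPKM with knockdown, against 28.0, 27.7 and 27.2 RPKM with the scrambled hairpin. Both pairs of groups overlapped. The 95% interval of the log2 change ran from -0.21 to 0.13 with overexpression (adjusted p = 0.723) and from -0.12 to 0.22 with knockdown (adjusted p = 0.621). Hilpda lies at chr6:29272488-29275446 on the plus strand, on the same chromosome as Cidec.

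**Figure D4:**
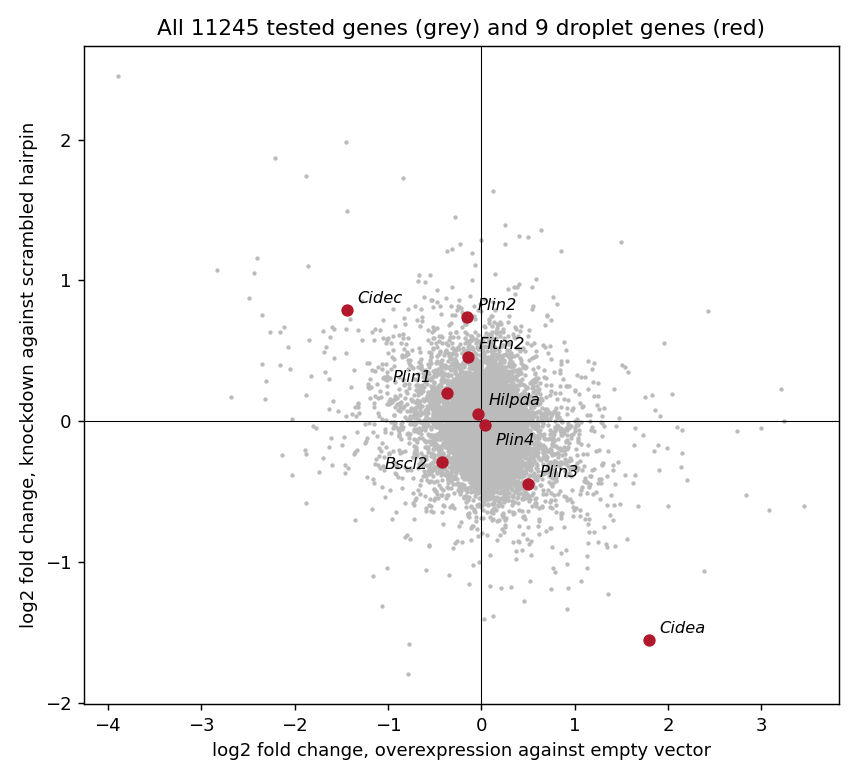
Log2 fold change of RPKM + 1 with overexpression against empty vector (horizontal axis) and with knockdown against scrambled hairpin (vertical axis) for all 11245 tested genes (grey) and the 9 droplet genes (red). Cidea lies at 1.79 and -1.56, Cidec at -1.44 and 0.79, and Plin4 and Hilpda lie near the origin.

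The overexpression and knockdown comparisons share no library, so their difference could be tested directly in the same model. The overexpression response minus the knockdown response passed the test for 6 of the 9 droplet genes and for 54.9% of all tested genes. Of all tested genes, 3888 passed with a positive and 2285 with a negative difference, beside 3009 and 3053 with median-ratio scaling and 3069 and 2989 with quantile normalization. Besides the CIDE genes, it was 0.95 for Plin3 (adjusted p = 1.10e-06), -0.89 for Plin2 (adjusted p = 3.38e-08), -0.60 for Fitm2 (adjusted p = 2.11e-06) and -0.57 for Plin1 (adjusted p = 8.42e-07). It was -0.13 for Bscl2 (SE 0.0536, adjusted p = 0.0564), and this gene passed with a value of -0.17 (adjusted p = 0.00885) without overexpression replicate 3. For Plin4 the interval ran from -0.12 to 0.25 and for Hilpda from -0.33 to 0.15.

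Leaving out overexpression replicate 3 kept the direction and the call of all 9 droplet genes in that comparison. The log2 change was then 1.78 for Cidea, -1.44 for Cidec, -0.35 for Plin1, -0.14 for Plin2, 0.58 for Plin3, -0.45 for Bscl2 and -0.10 for Fitm2 (adjusted p = 0.0156). The log2 changes that did not pass were 0.09 for Plin4 and -0.09 for Hilpda.

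The control groups also differed from each other in several droplet genes. The scrambled hairpin and empty vector libraries belong to separate parts of the study, so the constructs and anything else that differed between the parts cannot be told apart, and each of these groups is also a control above. The mitochondrial share of reads separated them too, at 4.795% to 5.69% with the scrambled hairpin and 8.61% to 9.35% with the empty vector, and its part in the differences was not tested. Scrambled hairpin against empty vector, 3 droplet genes rose and 3 fell, while 44.8% of all tested genes rose and 27.0% fell, 71.8% in all. With median-ratio scaling 3938 of all genes rose and 3990 fell, beside 5037 and 3033 as deposited, and 3 droplet genes rose and 6 fell. With quantile normalization 4045 rose and 3893 fell, and the droplet genes gave 3 rises and 4 falls.

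Hilpda had the largest such difference of the set, at 27.6 ± 0.396 RPKM with the scrambled hairpin and 9.56 ± 0.733 RPKM with the empty vector (SD, n = 3 each), 2.89 times (log2 change 1.44, adjusted p = 6.90e-09). It was the 116th largest rise of the tested genes. Plin2 stood at 1.43 times (log2 change 0.51, adjusted p = 8.61e-08) and Cidea at 1.93 times (log2 change 0.78, adjusted p = 2.44e-05). Fitm2 stood at 0.657 times (log2 change -0.60, adjusted p = 3.97e-08), Plin1 at 0.811 times (log2 change -0.30, adjusted p = 5.06e-06) and Plin4 at 0.883 times (log2 change -0.18, adjusted p = 0.0178). The call of Plin4 was lost without empty vector replicate 2 (adjusted p = 0.0542) or scrambled replicate 3 (adjusted p = 0.0674). Plin3, Cidec and Bscl2 did not pass (adjusted p = 0.658, 0.121 and 0.0711).

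Among 10 hypoxia-inducible genes, the class to which Hilpda belongs, 9 rose and 1 fell in the scrambled hairpin group relative to the empty vector, with a median log2 change of 2.03 against 0.09 for all genes. Car9, a carbonic anhydrase induced by low oxygen, had 4.68 ± 0.106 RPKM with the scrambled hairpin and 0.185 ± 0.0692 RPKM with the empty vector. The oxygen sensor Egln3 had 140.02 ± 0.796 RPKM with the scrambled hairpin and 20.9 ± 1.44 RPKM with the empty vector, and the glucose transporter Slc2a1 stood at 4.35 times. In the Foxp1 comparisons this list moved while Hilpda did not pass the test. With overexpression 8 of the 10 rose and 1 fell (median 0.80), among them Egln3 (2.47 times), Ndrg1 (3.08 times) and Slc2a1 (1.79 times). With knockdown 0 rose and 8 fell (median -0.43), among them Ndrg1 (0.410 times), Car9 (0.493 times) and the peptide hormone gene Adm (0.363 times). Their part in the Hilpda difference between the controls was not tested.

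**Figure D5:**
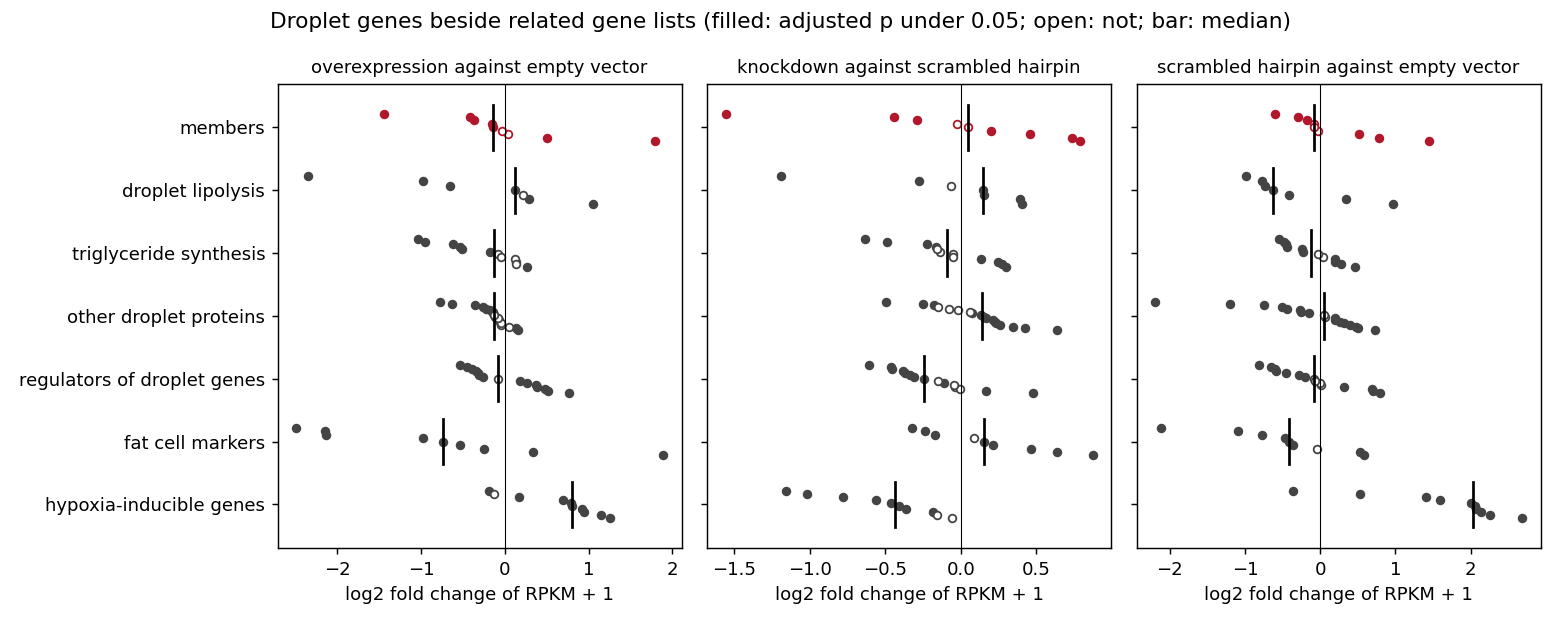
Log2 fold change of RPKM + 1 (horizontal axes) of each tested droplet gene (top row, red) and of the tested genes of 6 related lists (grey) in the 3 comparisons; filled points passed the test, open points did not, and black bars are medians. Fat cell markers have a median of -0.74 with overexpression, and hypoxia-inducible genes one of 2.03 between the controls.

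The counts of related lists are to be read against the shares of all tested genes called, which were 51.4% with overexpression, 49.7% with knockdown and 71.8% between the controls. Genes of droplet lipolysis changed with overexpression in both directions, 3 of 7 up and 3 down (median log2 change 0.13). The carboxylesterase Ces1d, one of a cluster of close copies that may share reads, had 23.1 ± 2.30 RPKM with overexpression and 122 ± 6.39 RPKM with the empty vector (adjusted p = 4.64e-11), and the hormone-sensitive lipase Lipe had 136 ± 6.89 RPKM with overexpression and 268 ± 3.53 RPKM with the empty vector (adjusted p = 3.66e-09). G0s2, an inhibitor of ATGL, had 353 ± 19.3 RPKM with overexpression and 169 ± 10.1 RPKM with the empty vector (adjusted p = 2.55e-08). With knockdown 4 of 7 rose and 2 fell (median 0.14). Pnpla3, a relative of ATGL found on droplets, had 1.36 ± 0.280 RPKM with knockdown and 4.35 ± 0.498 RPKM with the scrambled hairpin (adjusted p = 6.18e-06), while the monoglyceride lipase Mgll and Ces1d rose to 1.37 and 1.33 times. Between the controls 2 rose and 5 fell.

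Of 12 genes of triglyceride synthesis, 2 rose and 6 fell with overexpression (median -0.13), where 31.0% of all tested genes rose and 20.3% fell. The acyltransferases of the first step fell, Gpat4 to 0.477 times and Gpat3 to 0.495 times, and Dgat1, which completes triglyceride, fell to 0.685 times. Gpat4 had 21.4 ± 0.881 RPKM with overexpression and 44.9 ± 1.44 RPKM with the empty vector. With knockdown 4 rose and 4 fell (median -0.09). Dgat2, the second enzyme of the last step, had 242 ± 12.4 RPKM with knockdown and 374 ± 8.32 RPKM with the scrambled hairpin (adjusted p = 2.89e-06), Lpin3 fell to 0.581 times and Agpat3 rose to 1.22 times. Between the controls 4 rose and 6 fell.

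Of 22 other proteins found on droplets, 18 were tested. With overexpression 2 rose and 9 fell (median -0.13), and with knockdown 11 rose and 3 fell (median 0.14). The sterol enzymes Nsdhl and Lss fell to 0.644 and 0.767 times with overexpression, and the methyltransferase-like Mettl7a1, which has close copies that may share reads, fell to 0.570 times. Lss rose to 1.36 times with knockdown, Hsd17b7, another sterol enzyme, rose to 1.60 times, and the phospholipase Pld1 fell to 0.556 times. Between the controls 8 rose and 8 fell. The relatives Cideb and Fitm1 were too low to test, at 0.426 ± 0.0113 and 0.103 ± 0.0582 RPKM with overexpression and 0.282 ± 0.0785 and 0.129 ± 0.0298 RPKM with the empty vector.

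Regulators known to act on droplet genes were tested for 15 of 16. With overexpression 7 rose and 7 fell (median -0.08). PPARγ, its partner RXRα and C/EBPα, which drive fat cell genes including perilipin genes, were among those that fell. All 3 genes also fell with knockdown. Cebpb, Cebpd, Mlxipl and Ppargc1b rose with overexpression and fell with knockdown, Cebpb at 1.73 and 0.726 times. The other rises with overexpression, Esrra, Hif1a and Srebf1, did not pass the test with knockdown. Pparg had 98.8 ± 3.44 RPKM with overexpression and 123 ± 0.943 RPKM with the empty vector (0.806 times), Rxra stood at 0.758 times and Cebpa at 0.687 times. With knockdown 2 rose and 9 fell (median -0.24), the falls including Klf15 (0.641 times), Ppargc1b (0.684 times) and Rxra (0.792 times). Pparg fell to 0.926 times with knockdown (log2 change -0.11, adjusted p = 0.0302), where the median of all genes was -0.04. Cebpa fell to 0.844 times (adjusted p = 0.000646). Cidec, Plin1 and Plin2 rose with knockdown, and the part of these regulators in the droplet gene levels was not tested. How the Pparg call depends on scaling was not tested. Between the controls 4 rose and 7 fell.

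Fat cell markers fell in 7 and rose in 2 of 9 tested genes with overexpression, with a median log2 change of -0.74. Adipoq, the gene of the hormone adiponectin, had 438 ± 16.6 RPKM with overexpression and 1948 ± 17.3 RPKM with the empty vector, Retn stood at 0.225 times, and Pck1, an enzyme of glyceroneogenesis, at 5.08 times. With knockdown 5 rose and 3 fell (median 0.16), the rises including Adipoq (1.56 times), Cfd (1.84 times) and the fatty acid transporter Cd36 (1.38 times). The falls were those of Pck1 (0.856 times), Retn (0.849 times) and Slc2a4 (0.797 times), so Retn was lower in both comparisons. Between the controls 2 rose and 6 fell. Of 5 tested markers of undifferentiated preadipocytes, 2 rose and 2 fell with overexpression, 0 rose and 1 fell with knockdown, and 3 rose and 2 fell between the controls. Their summed RPKM was 96.9 to 102 with overexpression and 92.4 to 103 with the empty vector, and 102 to 115 with knockdown and 113 to 130.1 with the scrambled hairpin. The part of the fat cell state in the levels of Cidec, Plin1 and the other droplet genes was not tested.

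Thermogenic fat markers, the class in which Cidea is usually listed, were tested for 4 of 8. With overexpression 3 rose and 1 fell: Cox8b, a muscle and brown fat subunit of cytochrome c oxidase, had 219 ± 18.4 RPKM with overexpression and 48.4 ± 3.14 RPKM with the empty vector, Cox7a1 stood at 2.36 times and the fatty acid elongase Elovl3 at 1.37 times. The fall was that of Ppargc1a, a coactivator of mitochondrial genes, at 0.710 times (adjusted p = 0.000494). With knockdown 1 rose and 3 fell, with Cox7a1 at 0.569 times, Cox8b at 0.811 times and Ppargc1a at 1.201 times. Between the controls 2 rose and 2 fell. Cox8b had 3.19 ± 0.237 RPKM with the scrambled hairpin and 48.4 ± 3.14 RPKM with the empty vector (log2 change -3.56), the opposite direction to Cidea, while Elovl3 stood at 4.77 times and Cox7a1 at 1.71 times. Ucp1, the uncoupling protein that defines brown fat, was near 0 in every group, at 0.00553 ± 0.00958 RPKM with overexpression and 0.0160 ± 0.0159 RPKM with the empty vector, also where Cidea was highest.

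The genes whose profiles over the 12 libraries were most like those of the 3 droplet genes with the widest range of group means were found by the root mean square difference of log2(RPKM + 1) after centring each gene on its own mean. For Cidea these were Lrg1 (0.320) and Gm44386 (0.345). Lrg1 had 22.9 ± 1.38 RPKM with overexpression and 7.12 ± 0.430 RPKM with the empty vector, and 5.52 ± 0.255 RPKM with knockdown and 10.6 ± 0.357 RPKM with the scrambled hairpin. Lrg1 lies 2081 bases from Plin5 on the same strand. For Cidec the nearest were Arxes1 (0.150) and Rnf125 (0.158). Arxes1, whose close copy Arxes2 may share its reads, had 3.41 ± 0.107 RPKM with overexpression and 13.01 ± 0.543 RPKM with the empty vector, and 18.9 ± 1.80 RPKM with knockdown and 12.8 ± 1.40 RPKM with the scrambled hairpin. For Hilpda the nearest were Cdca3 (0.115) and Fscn1 (0.119), both higher in the knockdown and scrambled libraries: Fscn1 had 35.998 ± 3.22 RPKM with overexpression and 33.0 ± 2.37 RPKM with the empty vector, and 97.6 ± 6.63 RPKM with knockdown and 98.04 ± 2.83 RPKM with the scrambled hairpin. These are descriptions of 12 libraries in 4 groups and carry no test.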

How the data were processed

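The authors deposited 1 matrix of 28948 genes by 12 libraries. Build mm10 and the tools featureCounts, Subread 1.5.3 and HISAT2 2.1.0 are named in the submitters' processing notes; roles, settings and strand use are not given in the sources used here. The deposited values were RPKM divided by 1000 and were multiplied back. Symbols, exon lengths and positions came from GENCODE M21 (GRCm38) for 28896 identifiers. RPKM times exon length was a whole number of reads (tolerance 0.05) in 98.9% to 98.96% of nonzero values below 1000 reads. Larger values were not checked in this way. Reads served for depth, Plin5 and an alternative with voom.

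The 11245 genes that reached 1 RPKM in 3 libraries or more were tested as log2(RPKM + 1), which understates the change of low genes, with limma 3.58.1 in R 4.3.3 (lmFit, eBayes with trend), in 1 model of 4 groups. The test was also run on simulated reads with a single spread and far fewer changed genes than were called here. With overexpression it called 27 of 47 genes changed 1.2 times, 48 of 49 changed 1.5 times and 9 of 10468 unchanged genes. With knockdown these were 29 of 48, 45 of 47 and 10 of 10580. The settings differ from the real libraries, so these counts do not give the error rate here. Shares were compared with exact permutation tests in scipy 1.17.1. The members and lists were chosen with earlier results of these data known. From each list, up to 3 genes per comparison were named, smallest adjusted p first. Cideb, Fitm1, Ucp1, Ppargc1a with overexpression, and Pparg and Cebpa with knockdown, were added with their values in view. So were Pck1, Retn and Slc2a4 with knockdown and Ppargc1b with overexpression. The same holds for Cebpb, Cebpd, Mlxipl, Esrra, Hif1a and Srebf1 in both Foxp1 comparisons. Alternatives were other pseudocounts, filters, scalings and thresholds, other models, a replicate block and leaving out each library.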

Additional observations from a re-analysis of the deposited data

How the results depend on the processing

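The total numbers of droplet genes and of all genes called, both directions together, were within 1.5 times of the reported ones under the alternatives run. Single directions moved further in 3 cases: droplet genes that fell between the controls were 6 with median-ratio scaling, beside 3 as reported. With a filter of 5 RPKM, 2013 of 7181 genes fell between the controls, beside 3033 of 11245. In the difference 2582 genes passed with a positive value, beside 3888. Fewer genes were tested with this filter, so these lower counts do not show lower shares. Leaving out 1 library at a time gave 4965 to 6221 genes called with overexpression, 4758 to 5350 with knockdown, 7542 to 7632 between the controls and 5696 to 6678 for the difference of responses. Replicate numbers did not pair the libraries: same-numbered deviations correlated at -0.01, 0.12 and 0.08 for overexpression and at -0.07, 0.05 and -0.06 for knockdown, and a library was closest to its own number in 2 of 3 and 0 of 3 cases. With a replicate block, 5888, 5709, 8164 and 6328 genes and 7, 7, 6 and 6 droplet genes were called in the 4 comparisons. Log2 changes that turned direction had not passed the test as reported. Plin4 was -0.0118 (TPM) and -0.000463 (median-ratio scaling) with overexpression, 0.0284 with knockdown and -0.0288 in the difference (both median-ratio). Plin3 was 0.0481 (TPM) and Cidec 0.0635 (quantile) between the controls. Without 1 library at a time, Plin4 ran between -0.0161 and 0.0947 with overexpression and between -0.0645 and 0.0280 with knockdown. Hilpda ran between -0.0932 and 0.0581 with overexpression, -0.00832 and 0.0845 with knockdown, and -0.143 and 0.00865 in the difference, and Plin3 between -0.0518 and 0.0112 between the controls. The cause was not tested. Between the controls, median-ratio scaling added Plin3 (adjusted p = 0.0212), Cidec (0.00264) and Bscl2 (0.00323), all as falls. The directions of Plin3 and Cidec between the controls thus depended on scaling. Quantile normalization and a model of only the libraries compared added Bscl2 (0.00506 and 0.0393). Plin4 was lost with TPM (0.275) and at an adjusted p under 0.01. In the difference of responses, Bscl2 passed with median-ratio scaling (0.0126) and quantile normalization (0.00889), beside 0.0564 as reported. As shares of reads, which count long transcripts more by construction, the differences were -1.41 points for Plin1 (groups overlapping), 9.27 for Plin2 and -1.89 for Plin3 with knockdown, 2.61 for Plin3 with overexpression, and 0.771 and -0.131 for Cidea with overexpression and with knockdown. Depth limits Plin5, with 3 to 39 reads per group.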
